A study of Homo sapiens with 2 samples.

Results

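The integrin and laminin genes are taken here as the 44 gene names on the array that begin with ITGA, ITGB, LAMA, LAMB or LAMC, of 30238 gene names in all, read from probes that are not control spots. They hold 26 integrin subunits, 12 laminin chains and 6 names that begin alike but are neither subunits nor functional chains, namely ITGBL1, ITGB1BP1, ITGB1BP2, ITGB1BP3, ITGB3BP and LAMB2L. The names were covered by 70 of the 41000 probes. The study compared gene expression in lines of A2780, an established human ovarian cancer cell line, after selection for drug resistance. A2780CBN was selected up to 22.2 µM of carboplatin, a platinum drug that damages DNA. A2780CBNDXL was selected in carboplatin together with docetaxel, a taxane that stabilizes microtubules, and the labels give 8.02 µM for the combination. In the paper this is the carboplatin part of the IC50, beside 8.02 nM of docetaxel. The final selection dose that the paper gives is lower for both drugs. Each was set against A2780CC, parental cells co-cultured through the selection, so all groups share the A2780 background. The paper states that every resistant line had such a control of its own. Each resistant line was 1 sample, a pool of 3 RNA isolations, that was hybridized together with control RNA to 4 two-colour arrays, with arrays 1 and 2 on slide 1 and arrays 3 and 4 on slide 2, and with the dyes exchanged on arrays 2 and 4. The labels enter the same dyes for these arrays as for the others although they are named and described as reverse labelled, and their ratios were inverted to follow that name. With 1 sample per line, no test across cultures was possible, and every SD below is the spread of 4 arrays, which covers labelling and hybridization only.

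Laminins are secreted trimers of an alpha, a beta and a gamma chain that form the network of the basement membrane, the sheet of matrix on which epithelial cells rest. Integrins are receptors made of an alpha and a beta subunit that span the cell membrane and bind laminins and other matrix proteins outside the cell while tying them to the actin skeleton inside. The alpha subunit largely sets which ligand is bound, and in ovarian and other carcinomas the binding of tumour cells to matrix through integrins has been studied for its part in survival under chemotherapy.

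Values are log2 ratios of resistant line over control, and signals are the processed signals of the scanner software in arbitrary units, which compare samples for a probe and not probes with each other. A gene was called changed when its mean ratio was at least 2-fold, all 4 arrays had the same sign, and 1 of the channels was well above background throughout. By this rule 8 of 26 tested members were changed in A2780CBN, 5 higher and 3 lower, where 12.6% of all 17951 tested genes were changed, 1436 of them higher and 817 lower. In A2780CBNDXL 10 of 25 tested members were changed, 6 higher and 4 lower, against a background of 16.9% of 17116 genes, with 1318 higher and 1575 lower. The median log2 ratio of the tested members was 0.26 in A2780CBN and 0.06 in A2780CBNDXL, beside -0.06 and 0.04 over all tested genes. The laminin chains held 5 changed of 8 tested in A2780CBN and 4 of 8 in A2780CBNDXL, and the integrin subunits 2 of 14 and 5 of 14. A total of 14 genes were changed in at least 1 line, 4 of them in both, and the lines share a control of the same name, so their ratios are given side by side without a measure of overlap.

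**Figure D1:**
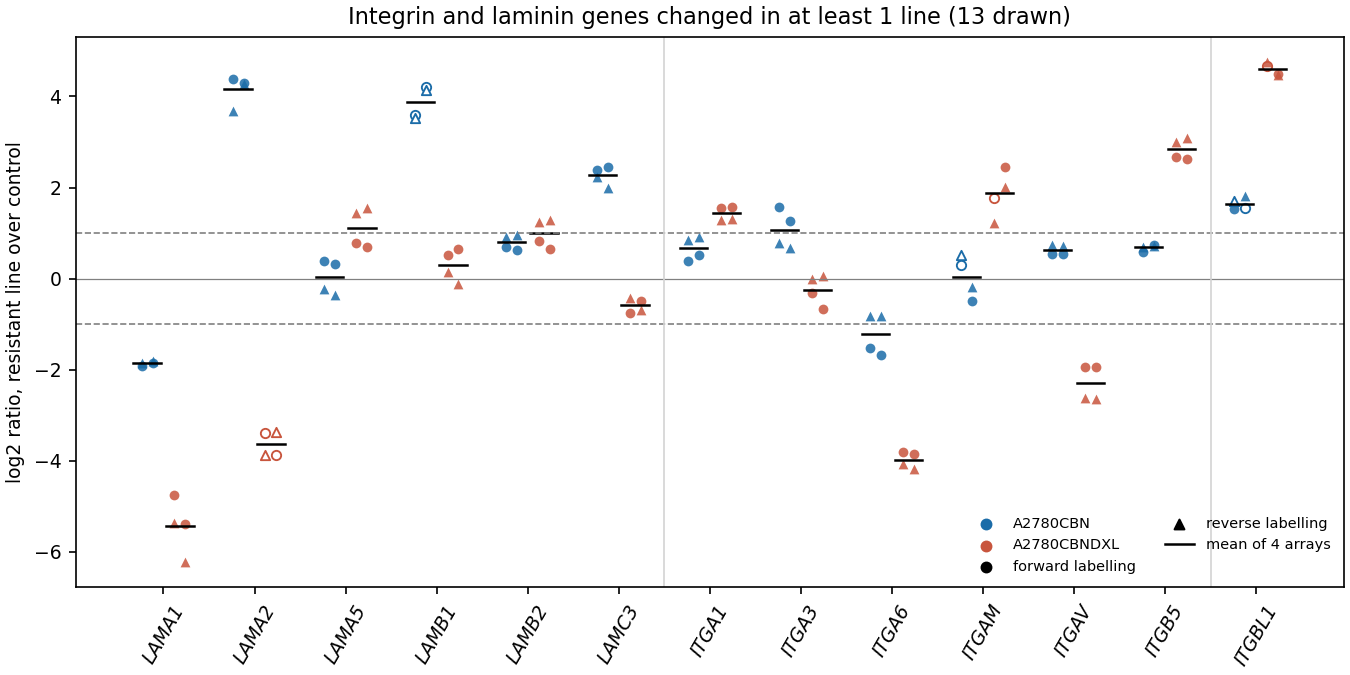
Log2 ratio of resistant line over control (vertical axis) on each of 4 arrays for 13 of the 14 integrin and laminin genes changed in at least 1 line (horizontal axis), with circles for forward and triangles for reverse labelling, open symbols for arrays with at most 1 channel well above background, a bar at the mean and dashed lines at 2-fold. LAMA2 lies at a mean of 4.15 in A2780CBN and below 0 in A2780CBNDXL, where its open symbols have no exact level, and LAMA1 and ITGA6 lie below 0 on every array of both lines.

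LAMA2, the alpha chain of the laminins of muscle and peripheral nerve, was the only member called in opposite directions, higher in A2780CBN but lower in A2780CBNDXL. Its probe lies on chromosome 6 of NCBI36 at chr6:129875315-129877253 on the plus strand, a span longer than the probe, so that it crosses a splice junction. The 60 bases of this probe and of the probe of LAMB1 are shown because these 2 laminin chains had the largest increases in A2780CBN, and no base is in capitals since the whole probe binds.
LAMA2: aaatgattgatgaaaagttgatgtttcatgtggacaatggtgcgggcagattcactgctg
LAMB1: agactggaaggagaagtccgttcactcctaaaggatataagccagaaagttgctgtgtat
On arrays 1 to 4 the LAMA2 signal was 752, 641, 584 and 565 in A2780CBN against 36.0, 50.3, 29.8 and 29.4 in its control. In A2780CBNDXL it was 8.71, 6.24, 4.94 and 5.77 against 91.3, 91.3, 72.5 and 59.5. Neither pair of ranges overlapped, and no A2780CBNDXL array had a LAMA2 signal well above background. The log2 ratio was 4.15 ± 0.33 (SD of 4 arrays) in A2780CBN, or 17.8-fold. In A2780CBNDXL, since the resistant line gave no signal well above background, the difference is stated as at least 3.6-fold lower. Such a bound sets the mean of the bright channel against, on each array, the lowest signal that the software placed well above background, or the probe's own where that was brighter. With normexp background correction at an offset of 50 and loess, LAMA2 was still called higher in A2780CBN but was not called in A2780CBNDXL, at -0.36, so the opposite calls were not kept under that setting. In a bulk sample, fewer cells that express a gene and less RNA per cell cannot be told apart.

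LAMB1, the beta chain shared by many laminins, was higher in A2780CBN. Its probe lies at chr7:107351647-107351706 on the minus strand. The signal in A2780CBN was 275, 249, 259 and 307 on the 4 arrays, against 22.9, 21.6, 14.0 and 17.3 in its control. No control array rose well above background, and the difference was at least 11.9-fold. With normexp at an offset of 50 and loess the ratio was 0.90, short of 2-fold. In A2780CBNDXL the signal of 127, 151, 179 and 166 overlapped with that of its control, at 88.0, 136, 113 and 181, and the log2 ratio was 0.30 ± 0.36. The control beside A2780CBNDXL thus had a LAMB1 signal well above background on all 4 arrays, whereas the control beside A2780CBN had none. After scaling of all channels to each other, the control was at least 5.29-fold brighter on the A2780CBNDXL arrays than on the A2780CBN arrays, and the resistant lines differed by -0.87 ± 0.12 in log2, A2780CBNDXL over A2780CBN. Against the control hybridized beside the other line, LAMB1 was called higher in both lines, at 1.17 ± 0.32 in A2780CBN and at least 6.53-fold in A2780CBNDXL.

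LAMC3, a gamma chain with a narrower tissue range than LAMC1, was higher in A2780CBN. Its signal was 1515, 1209, 1224 and 1112 on the 4 arrays, well apart from the 289.8, 258, 225 and 278 of the control, and the log2 ratio was 2.26 ± 0.20. In A2780CBNDXL the ratio was -0.59 ± 0.15, below 0 on all 4 arrays and short of 2-fold. LAMC1, the gamma chain common to most laminins, was not called, with -0.32 ± 0.05 in A2780CBN and -0.51 ± 0.07 in A2780CBNDXL.

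LAMA1, the alpha chain of the laminin best known from the early embryo, was lower in both lines. The probe with the highest signal, at chr18:6931976-6932035 on the minus strand, gave 472, 553, 462 and 484 in A2780CBN against 1779, 2013, 1662 and 1694 in the control. In A2780CBNDXL it gave 55.6, 45.9, 34.8 and 27.9 against 1506, 1890.4, 1454 and 2080.1. The signals of the controls overlapped, and the signal of A2780CBNDXL was below that of A2780CBN on every array. The log2 ratios were -1.86 ± 0.04 and -5.43 ± 0.60, or 3.62-fold and 43.2-fold lower. LAMA1 had 5 probes, and they did not give 1 answer. The sequences of 3 of them are shown because the first was not changed and the other two were lower in both lines, with no base in capitals.
LAMA1, chr18:7040874-7040933: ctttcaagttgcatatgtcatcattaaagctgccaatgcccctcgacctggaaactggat
LAMA1, chr18:6951670-6951729: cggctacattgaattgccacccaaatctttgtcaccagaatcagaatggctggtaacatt
LAMA1, chr18:6946742-6948512: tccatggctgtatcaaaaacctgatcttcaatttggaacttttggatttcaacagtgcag
The gene is read on the minus strand, so the first of these lies 109 kb upstream of the probe nearest the end of the gene, and the others 19.7 and 14.8 kb upstream of it. The probe at 19.7 kb had a ratio of -1.69 ± 0.15 in A2780CBN. In A2780CBNDXL no array of the resistant line was well above background there and the decrease was at least 6.73-fold. The probe at 14.8 kb had -1.72 ± 0.12 in A2780CBN and -3.52 ± 0.29 in A2780CBNDXL, where the resistant line was well above background on 2 of 4 arrays. The probe far upstream was well above background in all channels and had -0.33 ± 0.46 and -0.23 ± 0.25, with signals of 52.6, 77.4, 66.9 and 40.2 in A2780CBN against 96.9, 73.9, 65.5 and 59.0, and of 95.8, 75.0, 67.2 and 46.6 in A2780CBNDXL against 91.9, 85.3, 78.6 and 68.5. It therefore did not show the decrease seen by 3 of the probes toward the end of the gene. The remaining probe, drawn from another accession, was not above background on enough arrays to be tested in either line. Which transcripts each probe binds was not tested.

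**Figure D2:**
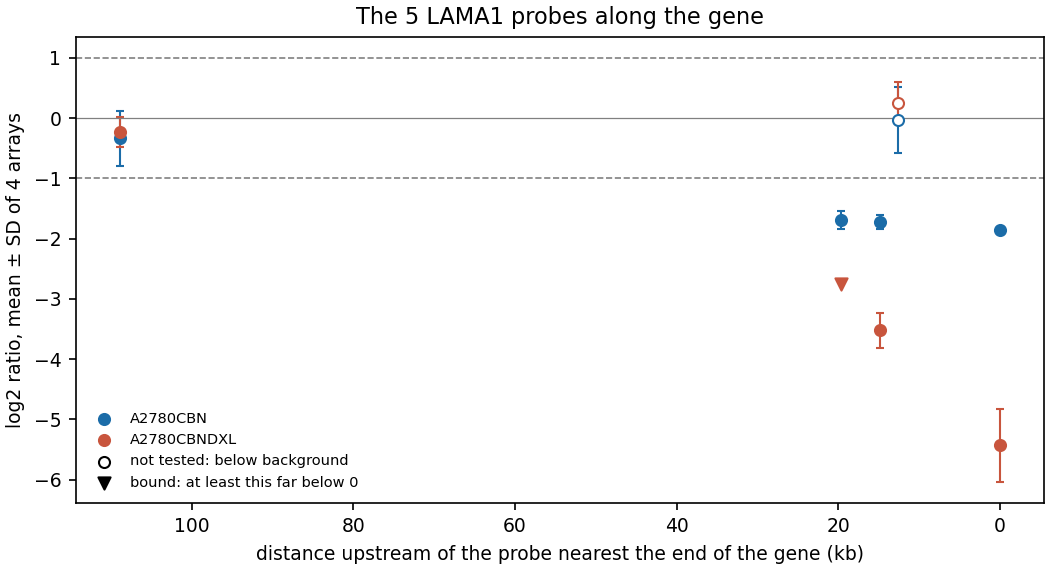
Mean log2 ratio of resistant line over control with the SD of 4 arrays (vertical axis) for the 5 LAMA1 probes by their distance upstream of the probe nearest the end of the gene (horizontal axis, kb), with open circles for values not tested and a triangle, without SD, at the bound of a probe with no signal well above background in the resistant line. The 3 probes within 19.7 kb that were tested lie below the dashed 2-fold line in both lines, and the probe at 109 kb lies between the dashed lines.

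LAMA5 and LAMB2, an alpha and a beta chain of the laminins of mature epithelial and vascular basement membranes, were higher in A2780CBNDXL. LAMA5 gave 663, 1107, 918 and 1139.5 against 386, 406, 565 and 391 and a ratio of 1.12 ± 0.44, larger on the reverse than on the forward labelled arrays. In A2780CBN its ratio was 0.03 ± 0.38, with the sign of the labelling direction. LAMB2 had ratios of 0.83, 1.25, 0.65 and 1.28 on the 4 arrays of A2780CBNDXL, a mean of 1.00 ± 0.31 that lies at the 2-fold limit. In A2780CBN its ratio was 0.80 ± 0.16, also above 0 on all 4 arrays and under the limit, so the lines fall on either side of the limit with values that differ by less than the SD of A2780CBNDXL. Without array 1 or array 4 LAMB2 fell just under the limit, at 0.96 and 0.996. LAMA3, LAMA4, LAMB3 and LAMB4 were not tested in either line because their signals were too close to background, and neither was LAMB2L, whose accession is now named LAMB2P1, a pseudogene.

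Among the integrin alpha subunits, ITGA6 was lower in both lines. It pairs with ITGB1 or ITGB4 to bind laminins. Its probe lies at chr2:173078802-173078861 on the plus strand. The signal was 271, 345, 207 and 317 in A2780CBN against 781, 605, 655 and 559 in the control, and 35.5, 37.0, 34.4 and 32.1 in A2780CBNDXL against 499, 618, 493 and 585. The ranges did not overlap in either line, and the decrease was 2.31-fold in A2780CBN, with a ratio of -1.21 ± 0.45, and 15.7-fold in A2780CBNDXL, with -3.98 ± 0.18. Against the other control the ratio in A2780CBN was -0.90 ± 0.17, under the limit. The partners of ITGA6 were not called. ITGB4 had 0.77 ± 0.74 and 0.77 ± 0.13. For ITGB1, the beta subunit of most laminin and collagen receptors, the probe with the highest signal had 0.18 ± 0.53 in A2780CBN, and in A2780CBNDXL it was not tested because array 3 held an outlier spot, with -0.30, -0.52 and -0.57 on the other arrays. Of 2 further probes on chromosome 10, one gave 0.54 ± 0.26 and -0.10 ± 0.36 and the other 0.64 ± 0.56 and -0.01 ± 0.26 in the respective lines. A probe that carries the name ITGB1 but lies on another chromosome gave 0.55 ± 0.15 in A2780CBN and was not tested in A2780CBNDXL.

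ITGA3, which also binds laminins with ITGB1, was higher in A2780CBN, with signals of 172, 164, 138 and 109 against 57.6, 96.1, 57.1 and 68.7 and a ratio of 1.07 ± 0.43. The ratio was larger on the forward labelled arrays, and without array 1 it was 0.998, at the edge of the limit. In A2780CBNDXL it was -0.24 ± 0.33. ITGA7, the laminin-binding subunit of muscle, was not called in either line, at 0.29 ± 0.16 and 0.56 ± 0.20. ITGA1, a collagen and laminin receptor subunit, was higher in A2780CBNDXL. Its probe crosses a splice junction at chr5:52276569-52278937 on the plus strand, and its sequence is shown with that of ITGB5 because they were the integrin subunits called higher in A2780CBNDXL with both channels well above background on all arrays.
ITGA1: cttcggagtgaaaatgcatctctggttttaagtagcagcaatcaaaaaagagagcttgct
ITGB5: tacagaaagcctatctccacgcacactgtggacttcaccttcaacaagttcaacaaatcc
The ITGA1 signal was 2349, 4094, 4008 and 3306 in A2780CBNDXL against 798, 1677, 1351 and 1336 in its control, and the ratio was 1.43 ± 0.15. In A2780CBN the ratio was 0.66 ± 0.26, above 0 on all 4 arrays. The control channels differed for this gene as well, by 1.19 ± 0.48 in log2, higher on the arrays of A2780CBNDXL. Against the other control the ratio in A2780CBN was -0.53 ± 0.30, opposite in sign, and that of A2780CBNDXL was 2.62 ± 0.39.

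ITGAV and ITGB5, which together form a receptor for vitronectin, moved apart in A2780CBNDXL. ITGAV is the alpha subunit of several receptors that recognize a short arginine-containing motif in vitronectin and fibronectin. A probe for this gene, at chr2:187253540-187253599 on the plus strand, was spotted 10 times per array. Its signal was 4836, 5993, 6299 and 6049.9 in A2780CBNDXL against 18498, 36706, 24262 and 37713 in the control, with a ratio of -2.28 ± 0.40. In A2780CBN the signal was 29145, 28536, 26218 and 26904 against 20157, 17019.7, 18124 and 16398, with a ratio of 0.63 ± 0.11. The ranges of resistant line and control did not overlap in either line, and every array was above 0 in A2780CBN and below 0 in A2780CBNDXL. A separate ITGAV probe, at chr2:187252339-187252398, gave 0.84 ± 0.15 and -2.57 ± 0.07. ITGB5, at chr3:125965181-125965240 on the minus strand, had a signal of 14947, 25869, 20607 and 21571 in A2780CBNDXL against 2332, 3228, 3327 and 2543. Its ratio was 2.85 ± 0.23, or 7.21-fold, and that in A2780CBN was 0.69 ± 0.06, with no overlap of the signals of line and control in either. Its control differed little between the lines, by 0.06 ± 0.21 in log2. ITGB3, ITGB6 and ITGB8, which also pair with ITGAV, were not tested in either line, and ITGB1, a further partner, was not called.

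**Figure D3:**
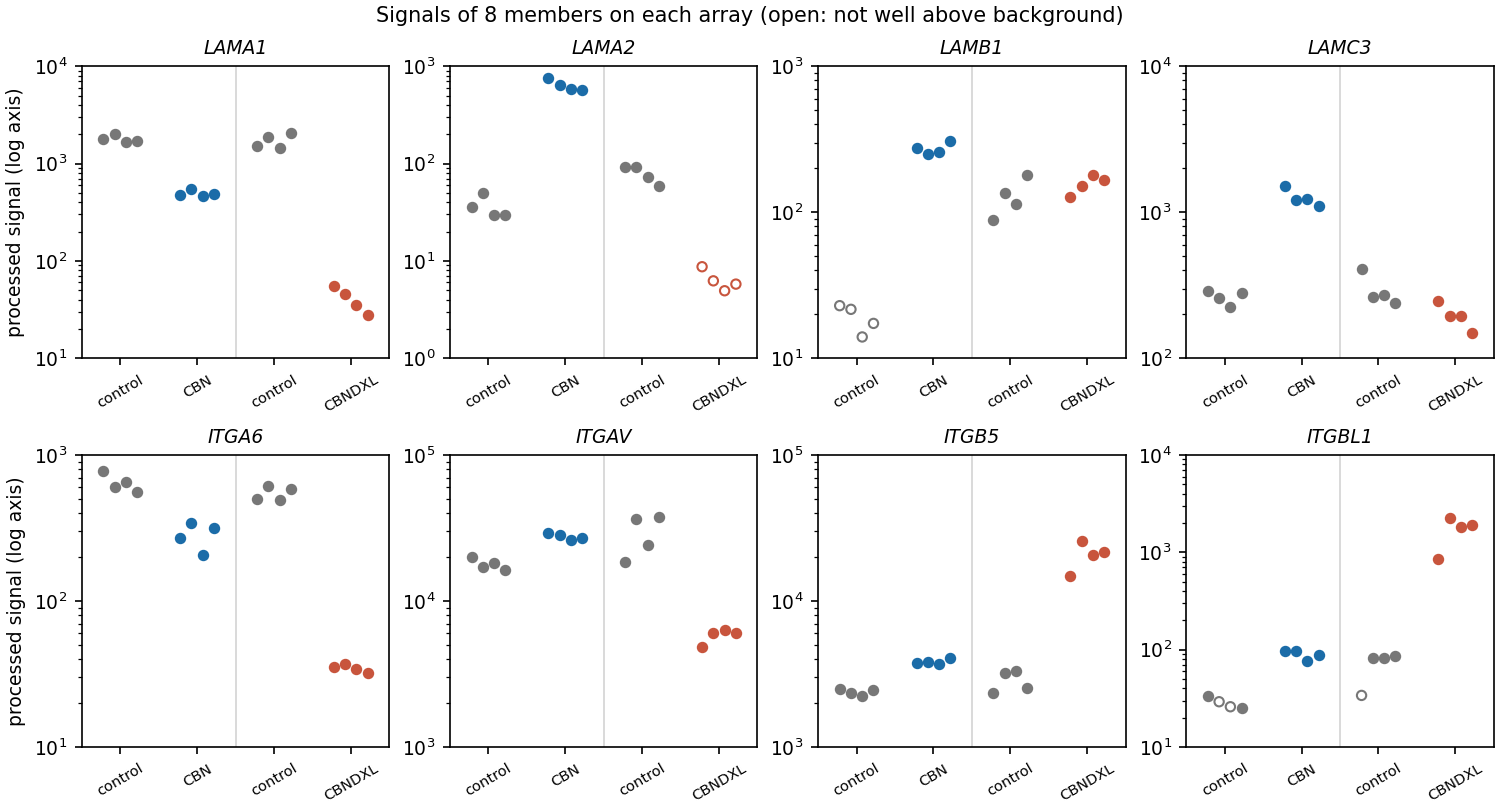
Processed signal in arbitrary units (vertical log axis) of 8 members on each of 4 arrays, in the control and resistant line channels of the A2780CBN arrays (left of the line) and the A2780CBNDXL arrays (right), with open circles where a signal was not well above background. LAMB1 shows open circles in the control beside A2780CBN alone, and ITGAV and ITGB5 move to opposite sides of their control in A2780CBNDXL.

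ITGAM, the alpha subunit of a leukocyte receptor for complement and fibrinogen, was higher in A2780CBNDXL. Its signal was 67.6, 98.1, 299.7 and 307 against 19.8, 41.9, 54.5 and 75.7, and the ratio was 1.87 ± 0.51. Both channels were lower on slide 1 than on slide 2, and the control was well above background on 3 of 4 arrays. In A2780CBN it was not tested. Its partner ITGB2, the beta subunit of leukocyte integrins, gave no signal well above background in either line, and neighbours of ITGAM on chromosome 16, ITGAD, ITGAX and ITGAL, were not tested in either line. ITGBL1, a secreted protein with repeats like those of the integrin beta subunits but not a subunit, was higher in both lines. Its signal was 96.5, 95.7, 75.6 and 87.5 in A2780CBN against 33.5, 29.2, 25.9 and 25.0, and 858, 2237, 1836 and 1901 in A2780CBNDXL against 33.9, 82.4, 81.6 and 85.6. The ratios were 1.65 ± 0.14 and 4.60 ± 0.14, or 3.13-fold and 24.2-fold, with the control well above background on 2 and 3 arrays. Against the other control the ratio in A2780CBN was 0.48 ± 0.63, under the limit.

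The 13 members tested in at least 1 line and changed in none comprised LAMC1, ITGB1, ITGB4 and ITGA7, described above, and ITGA2B, ITGA5, ITGA9, ITGA11, ITGAE, ITGB7, ITGB1BP1, ITGB1BP2 and ITGB3BP. The mean log2 ratios of the members not called ran from -0.58 to 0.91 in A2780CBN. In A2780CBNDXL the lowest was -0.61 and the highest 0.87. ITGA2B, the platelet fibrinogen receptor subunit, was the member nearest to the limit from below in both lines, with 0.91 ± 0.12 and 0.87 ± 0.25. ITGA5, the subunit of the classical fibronectin receptor, had 0.17, -1.10, 0.29 and -1.04 on the arrays of A2780CBN and -0.95, 0.43, -0.77 and 0.37 on those of A2780CBNDXL. Its sign followed the labelling direction, above 0 on the forward arrays of A2780CBN but on the reverse arrays of A2780CBNDXL, so its values carry no direction. ITGB1BP1, which binds the tail of ITGB1, had 0.31 ± 0.18 and -0.23 ± 0.15. A further 17 members were not tested in either line. Besides those already named they were ITGA2, ITGA4, ITGA8, ITGA10 and ITGB1BP3, whose accession is now named NMRK2 and codes for a kinase. Of the 17, 11 gave no signal well above background in any channel. ITGA2 is not among these 11, since both channels were well above background on 1 array of A2780CBNDXL.

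Since several members depended on the control, each line was also compared with the control RNA hybridized beside the other resistant line, matched on slide and labelling. Of 24 members tested, 3 had control channels that differed by the 2-fold rule, namely LAMB1, ITGA1 and LAMA2, all higher beside A2780CBNDXL, where 4.58% of all tested genes differed. LAMA2 had a control difference of 1.07 ± 0.26 and against the other control was higher in A2780CBN at 3.08 ± 0.21. In A2780CBNDXL its measured ratio passed the rule against the other control, but with no signal well above background in the resistant line the bound is at least 1.71-fold lower, short of 2-fold. LAMA1 in both lines, LAMB1, LAMC3 and ITGA3 in A2780CBN, and LAMB2, ITGA1, ITGA6, ITGAM, ITGAV, ITGB5 and ITGBL1 in A2780CBNDXL remained called. Of the other calls described here, ITGA6 and ITGBL1 in A2780CBN and LAMA5 in A2780CBNDXL were no longer called. ITGB4 was called higher in A2780CBN at 1.08 ± 0.14, and in A2780CBNDXL LAMB1 and ITGA2B were called higher and ITGB1BP2 lower, the last at -1.36 ± 1.01. The labels give the control channel of both lines the name A2780CC and do not say whether the RNA came from the same culture. The paper states that every resistant line had a co-cultured control of its own. By that account the control beside the other line was not the matched control.

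**Figure D4:**
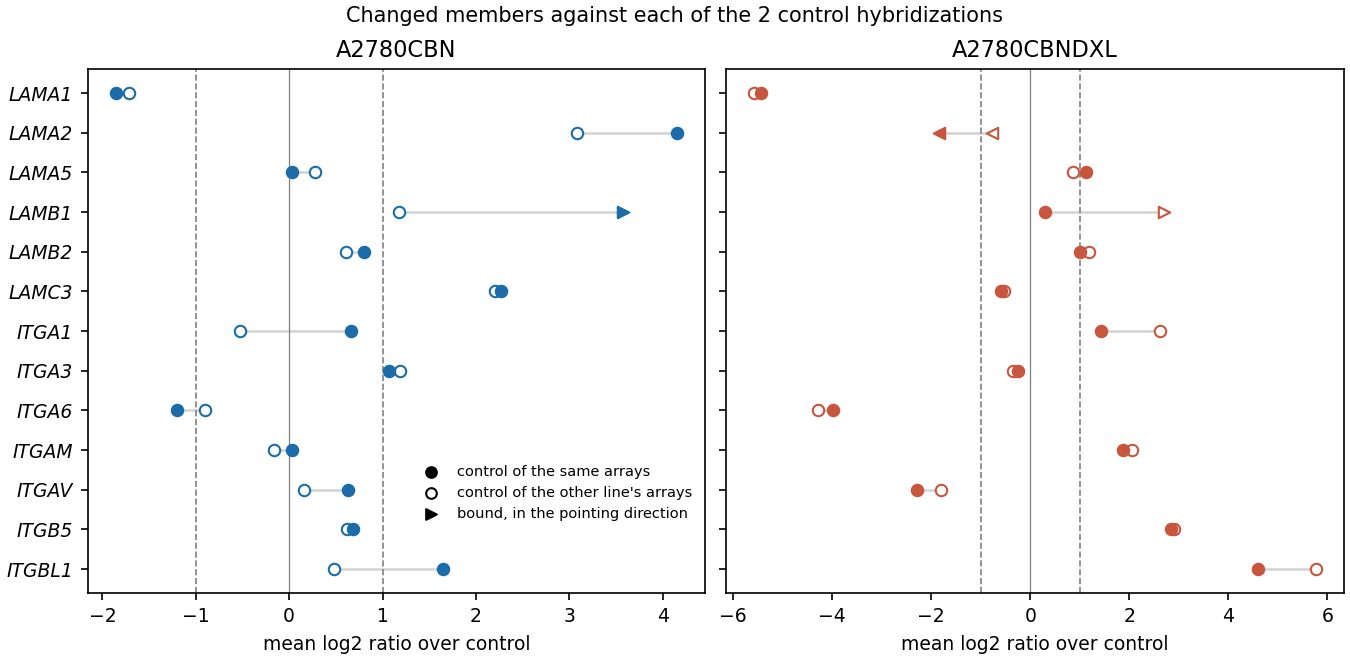
Mean log2 ratio over 4 arrays (horizontal axis) of 13 of the 14 changed members in each line against its own control (filled) and the control hybridized beside the other line (open), with dashed lines at 2-fold and triangles at a bound where a channel gave no signal well above background. LAMB1 goes from a bound of at least 11.9-fold to a log2 ratio of 1.17 in A2780CBN, and in A2780CBNDXL from 0.30 to a bound of at least 6.53-fold, whereas LAMC3, ITGB5 and LAMA1 keep their places closely.

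By the 3-way ANOVA that the methods name, with line, dye and slide as factors, the same 8 and 10 members passed at 2-fold in A2780CBN and A2780CBNDXL, with adjusted p up to 0.00455 and 0.0399. The paper further kept only genes without a significant difference between replicate arrays or labelling directions. Without genes that had a dye or slide effect in this ANOVA, 5 and 7 members passed. That step dropped LAMA2 in both lines, ITGA6 and ITGBL1 in A2780CBN, and LAMB2 and ITGAM in A2780CBNDXL. Limma with the dye as covariate called the same 8 and 10 as the rule, with adjusted p up to 0.000303 and 0.00117. These p-values measure the error of arrays and not of cultures. Both fits return the same mean ratios as the rule, so the 2-fold part of these calls was fixed in advance. Within slide 1 alone 8 and 10 members were called in the 2 lines, and within slide 2 alone 7 and 9. With normexp background correction at an offset of 50 and loess in place of the deposited processed signals, which shrinks the ratios of dim probes, LAMA1, LAMA2 and LAMC3 were called in A2780CBN and LAMA1, ITGA1, ITGA6, ITGAV, ITGB5 and ITGBL1 in A2780CBNDXL. The shares of all genes called under these alternatives are not given here, so the counts do not tell whether the members or all genes moved.

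Ligands of integrins other than laminins are the proteins that the same receptors bind. Of 20 such genes, 17 were tested in A2780CBN, with 8 higher and 2 lower, and 15 in A2780CBNDXL, with 6 higher and 5 lower. In A2780CBN SPP1, or osteopontin, was higher at 5.33 ± 0.12 and TGFBI, a matrix protein induced by TGF-beta, at 3.54 ± 0.13. ICAM1, a leukocyte adhesion molecule, was at least 9.44-fold higher and FN1, or fibronectin, at least 8.77-fold, over controls with no signal well above background, so their order among the increases is not known. CTGF, a matricellular growth factor, at -2.77 ± 0.29, and POSTN, or periostin, at -2.18 ± 0.35, were lower. In A2780CBNDXL EDIL3, a ligand of ITGAV receptors, had the largest increase among those passing at 3.56 ± 0.16, followed by TGFBI at 2.92 ± 1.13 and ICAM1 at 1.93 ± 0.20. The decreases included POSTN at -6.08 ± 0.06, CTGF, at least 24.3-fold lower, and LTBP1, a carrier of latent TGF-beta, at least 7.48-fold lower. The median ratio of the tested ligands was 0.66 in A2780CBN and 0.17 in A2780CBNDXL. Of those tested, 58.8% and 73.3% were changed, beside 12.6% and 16.9% of all tested genes.

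Of 18 genes of other basement membrane components, 17 were matched and 12 tested in A2780CBN, where COL17A1, a collagen of the epithelial anchor, was higher at 1.34 ± 0.50 and none was lower. In A2780CBNDXL 11 were tested, 1 higher and 2 lower. COL4A5, a network collagen chain, was higher at 1.06 ± 0.17, and both nidogens, which link laminin to the collagen network, were lower, NID1 at -2.14 ± 0.26 and NID2 at -1.38 ± 0.12. The medians were 0.41 and 0.40. The share changed was 8.33% in A2780CBN, below the 12.6% of all tested genes, and 27.3% in A2780CBNDXL, beside 16.9%.

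Of 25 genes of focal adhesions, the contact sites where integrins meet actin, 21 were tested in A2780CBN with 1 higher and 2 lower, and 22 in A2780CBNDXL with 3 higher and 4 lower. TES, a focal adhesion protein, was lower in both lines at -4.99 ± 0.29 and -4.88 ± 0.07. CAV1, or caveolin, was at least 3.98-fold lower in A2780CBN and had -2.71 ± 0.21 in A2780CBNDXL. FERMT1, a kindlin that activates integrins, was higher in A2780CBN at 1.43 ± 0.51 and lower in A2780CBNDXL at -1.10 ± 0.34. In A2780CBNDXL PTK2B, PARVA and FLNA were higher, at 1.46 ± 0.47, 1.29 ± 0.11 and 1.04 ± 0.87, and FERMT2 was lower at -1.14 ± 0.08. The medians were -0.14 and 0.08. The share changed was 14.3% in A2780CBN, near the 12.6% of all tested genes, and 31.8% in A2780CBNDXL, beside 16.9%.

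Laminin receptors outside the integrin family and partners of integrins made up a list of 18 genes, of which 17 were tested in A2780CBN, with 4 higher and 1 lower, and 12 in A2780CBNDXL, with 3 higher and 1 lower. SGCE, a sarcoglycan, was higher in both lines at 2.99 ± 0.10 and 1.38 ± 0.30, and so was LGALS3, or galectin-3, at 1.90 ± 0.19 and 2.12 ± 0.41. CD9, a tetraspanin that binds integrins, was higher in A2780CBN at 2.23 ± 0.14, and CD82, of the same family, in A2780CBNDXL at 1.88 ± 0.18. SDC2, a syndecan, was lower in A2780CBN at -2.82 ± 0.09, and PLAUR, the urokinase receptor, in A2780CBNDXL at -1.18 ± 0.25. The medians were 0.22 and 0.44. Of those tested, 29.4% and 33.3% were changed, beside 12.6% and 16.9% of all tested genes.

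The labelled cell type was checked against 10 epithelial and ovarian markers, of which 9 were matched. KRT8, KRT18, PAX8 and ESR1 were well above background on every array, and CDH1, WT1 and MUC16 on none. Of the 9 matched, 6 were tested in A2780CBN, with 2 higher, and 5 in A2780CBNDXL, with 1 higher, and none was lower. The shares changed were 33.3% and 20%, beside 12.6% and 16.9% of all tested genes, and the medians were -0.08 and 0.33. EPCAM was higher in both lines, at 2.07 ± 0.30 and 1.67 ± 0.24. Of 7 fibroblast markers, 4 were higher and 2 lower of 7 tested in A2780CBN, and 5 higher and 1 lower of 6 tested in A2780CBNDXL, with COL1A2 lower in both. The shares changed were 85.7% and 100%, beside 12.6% and 16.9% of all tested genes. The summed signal of the fibroblast markers ran from 37979.8 to 47369.8 in A2780CBN against 14273 to 21078 in its control, and from 53497 to 73157 in A2780CBNDXL against 22601 to 30523. COL3A1 made up most of these sums, and their part in the changes of integrins and laminins was not tested. PTPRC and LYZ of 6 leukocyte markers stayed near background throughout. Of the 6, 3 were tested in A2780CBN and not changed, and 4 were tested in A2780CBNDXL, with 1 lower. The shares changed were 0% and 25%, beside 12.6% and 16.9% of all tested genes. The summed signal of that list was 297 to 325 in A2780CBN and 226 to 257 in A2780CBNDXL, the second below its control, at 304 to 352. None of the 4 endothelial markers could be tested in either line, and of 3 mesothelial markers UPK3B was tested and not changed. Over the 8 arrays, the share of spots well above background in a channel was 59.8 to 67.5%. Across probes, log2 ratios of opposite labellings of a line correlated at 0.58 to 0.74, and those of the same labelling at 0.85 to 0.90.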

How the data were processed

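RNA of 2 resistant lines and of co-cultured controls was hybridized to 8 two-colour Agilent arrays of whole human genome probes. The authors scanned the arrays with Agilent Feature Extraction, in version 10.7.1.1 for the first slide and 10.7.3.1 for the other. In the deposited files the processed intensity of each channel is background-subtracted and dye-normalized, with a surrogate for signals near background. From these, spots of a probe were averaged without outlier spots, log2 ratios were averaged per labelling direction before the directions were averaged, and a gene was represented by the probe with the highest mean signal. A spot counted as above background by the software's own flag. The members and lists were chosen with earlier results of these data known. Every member changed in a line was named except 1, which is counted but not reported here, and of each list up to 3 genes from each end of those that passed. Bounds and values across lines used Aquantile scaling. Alternatives were normexp with loess, other fold limits and filters, single slides, limma 3.58.1 in R 4.3.3, and a 3-way ANOVA. Only the 2-fold rule, limma with the dye and the 3-way ANOVA were tried on simulated data. Of 70 probes, 65 matched a RefSeq accession of GRCh38.p14, used for names only; probe sequences and NCBI36 coordinates came from the files.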

Additional observations from a re-analysis of the deposited data

Results flagged for a closer look

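In A2780CBN, the LAMA2 log2 ratio of array 2 stood apart from the other 3 arrays, with a gap of 0.831 of the whole range, and in A2780CBNDXL the ITGA11 log2 ratio of array 3 did so with a gap of 0.900. Chance flags about 1 in 20 groups in this way, and ITGA11 was not called in either line. In 4 members every array of A2780CBN was above 0 and every array of A2780CBNDXL below 0. The log2 ratio in A2780CBNDXL minus that in A2780CBN was -2.92 for ITGAV, -2.85 for LAMC3 and -0.53 for ITGB1BP1, and for LAMA2, whose signal in A2780CBNDXL was not well above background, it was -6.00 or lower. ITGB7 alone ran the other way, with every array of A2780CBN below 0 and every array of A2780CBNDXL above 0 and a difference of 0.66, although 1 array of A2780CBN and 2 of A2780CBNDXL lay within 0.03 of 0. The differences were not tested in these genes, since each line was 1 sample.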

How the results depend on the processing

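The number of changed members was 8 in A2780CBN. It was 3, 2 of them higher, after normexp with an offset of 50 and loess, and 4, 3 of them higher, with an offset of 1. A 1.5-fold limit gave 14, a 3-fold limit 5, and the ANOVA without genes that had a dye or slide effect 5. In A2780CBNDXL the number was 10, and normexp with an offset of 50 gave 6, 3 of them higher, and with an offset of 1 gave 8, 4 of them higher. Leaving out 1 array in turn gave 7 to 8 in A2780CBN and 9 to 10 in A2780CBNDXL. The shares of all genes given above, 12.6% in A2780CBN and 16.9% in A2780CBNDXL, apply to the main rule only. Those under the alternatives are not given here, so these counts do not tell whether the members or all genes moved. The other alternatives stayed within 1.5 times of the number reported, 15 of 20 in A2780CBN and 19 of 20 in A2780CBNDXL in all. Log2 ratios of the called members kept their sign in all 117 values under alternatives in A2780CBN and all 147 in A2780CBNDXL, and 102 and 136 of these were still called. Much of this was fixed in advance. A call required the same sign on all 4 arrays, so leaving out arrays or a slide could not reverse it. Limma and the ANOVA return the same mean ratio as the rule. Each array holds a resistant line and its control together, so the log2 ratios and limma are paired by array. The ANOVA takes the channels of an array as separate values and leaves this pairing out. No pairing across cultures was possible because each line was 1 pooled sample hybridized to repeat arrays. Signal over background limits the ratios of LAMA2 in A2780CBNDXL and LAMB1 in A2780CBN, where one channel stayed near background throughout.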
